A study of Mus musculus with 3 samples.

Results

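The 8 genes described here encode receptors that bind the constant part of antibodies and the adaptors and kinase that carry their signal: Fcer1g, Tyrobp, Fcgr1, Fcgr2b, Fcgr3, Fcgr4, Syk and Fcgrt. They were taken as every probe whose RefSeq accession belongs to one of these genes, which gave 8 probes, 1 for each gene, of 55664 probes and 21150 named genes on the array. RNA came from ADM cells (acinar-to-ductal metaplasia, acinar cells that take on duct-like features), duct cells and acinar cells, cut by laser microdissection from the frozen pancreas of 3 wild-type mice, 48 h into pancreatitis brought on by caerulein, an analogue of the gut hormone cholecystokinin that drives acinar cells beyond their normal secretion. A single array stands for a cell type, so the differences have no replicates behind them and none was tested. The mice's strain and age, and whether RNA was pooled over mice for an array, are not given in the sources used here.

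Antibody receptors of the Fc gamma group sit mainly on macrophages, monocytes, neutrophils and other leukocytes, where they bind IgG on coated particles and immune complexes. The activating receptors have no signalling tail of their own and pair with the common gamma chain encoded by Fcer1g, whose ITAM motif is phosphorylated by Src-family kinases and then recruits the kinase Syk. Tyrobp, also called DAP12, is a second ITAM adaptor that serves receptors such as Trem2, and Fcgr2b is the inhibitory receptor that carries an ITIM in its own tail. Fcgrt encodes the heavy chain of the neonatal Fc receptor, which pairs with beta-2-microglobulin and carries IgG through or back out of endothelial and epithelial cells.

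RefSeq promoter windows, 250 bases before to 50 bases after each annotated start (GRCm38.p6), matched 7 of the 8 genes, and are shown because 4 of those 7 share a short motif. The motif searched was GAGGAA on both strands, the core bound by the myeloid ETS factor PU.1, and no other motif was searched with it. It was found in the windows of Fcgr4, Fcgr3, Fcgr1 and Syk, and in 31.3% of the 27025 genes with a window (28.3% of 32851 windows). The matches are printed 5′ to 3′ on the gene's strand with 24 bases on each side, and capitals mark GAGGAA or its reverse complement TTCCTC.
Fcgr4 (chr1:171018880-171018933, + strand): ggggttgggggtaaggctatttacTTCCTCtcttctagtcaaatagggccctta
Fcgr3 (chr1:171059380-171059433, − strand): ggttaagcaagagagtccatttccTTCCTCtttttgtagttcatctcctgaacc
Fcgr1 (chr3:96293995-96294048, − strand): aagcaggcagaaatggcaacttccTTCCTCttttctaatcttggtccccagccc
Syk (chr13:52596849-52596902, + strand): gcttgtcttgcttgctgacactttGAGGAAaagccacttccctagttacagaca
The match began 22 bases before the annotated start of Fcgr4, 55 before that of Fcgr1, 6 and 15 before those of Fcgr3, whose windows overlap, and 9 before one of the Syk starts, while the other Syk window held none. Around the match, Fcgr1 and Fcgr3 share the run TTCCTTCCTCTTTT of 14 bases, a comparison made after the sequences were seen. That run stood in 5 of the 32851 windows (0.0152%), on either strand. The 5 include the windows the run was taken from, that of Fcgr1 and the overlapping ones of Fcgr3, so the share is not a background rate. The windows of Fcer1g, Fcgr2b and Fcgrt did not hold GAGGAA. A match is a description of these letters and not of binding.

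Levels below are log2 processed signal minus the array's own 75th percentile, so 0 is that percentile. It stood at 72.2 intensity units on the ADM array, 95.7 on duct and 35.2 on acinar. A probe counts as detected where the scanner software called it well above background. All 8 genes were detected on the ADM array, 7 on duct and 4 on acinar, against 61.3%, 61.3% and 50.9% of the 21150 named genes. The 4 detected on all 3 arrays were Fcer1g, Tyrobp, Fcgr3 and Fcgr4. Acinar markers were 2-fold lower in ADM than in acinar cells for 11 of 13 genes and 2-fold lower in duct than in acinar cells in 13 of 13. Duct markers were higher in duct than in acinar cells in 10 of the 10 compared. Those counts go with the labels, although Cftr, a defining duct marker, was not well above background on any array.

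Both adaptors were brightest in ADM. Fcer1g had a spot signal of 2273 ± 227 units on ADM, 459 ± 46.0 on duct and 144 ± 14.5 on acinar (± the scanner software's error for 1 spot), which are levels of 4.98, 2.26 and 2.03. The ADM level stood apart, and duct and acinar lay close together. Fcer1g was 6.56-fold higher in ADM than in duct cells (2.71 log2 units) and 7.69-fold higher than in acinar cells (2.94), and the duct and acinar levels differed by 0.23 log2 units.

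Tyrobp had a signal of 9792 ± 979 units on ADM, 1674 ± 167 on duct and 1024 ± 102 on acinar, or levels of 7.08, 4.13 and 4.86. It was 7.75-fold higher in ADM than in duct (2.95) and 4.66-fold higher than in acinar (2.22). Its order below ADM was the other way round from Fcer1g, with duct 0.73 log2 units below acinar, within 2-fold. Repeated spots of other probes at a like level had a median SD of 0.0501 to 0.107 log2 units for both genes on the 3 arrays, which covers spotting and scanning only.

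**Figure D1:**
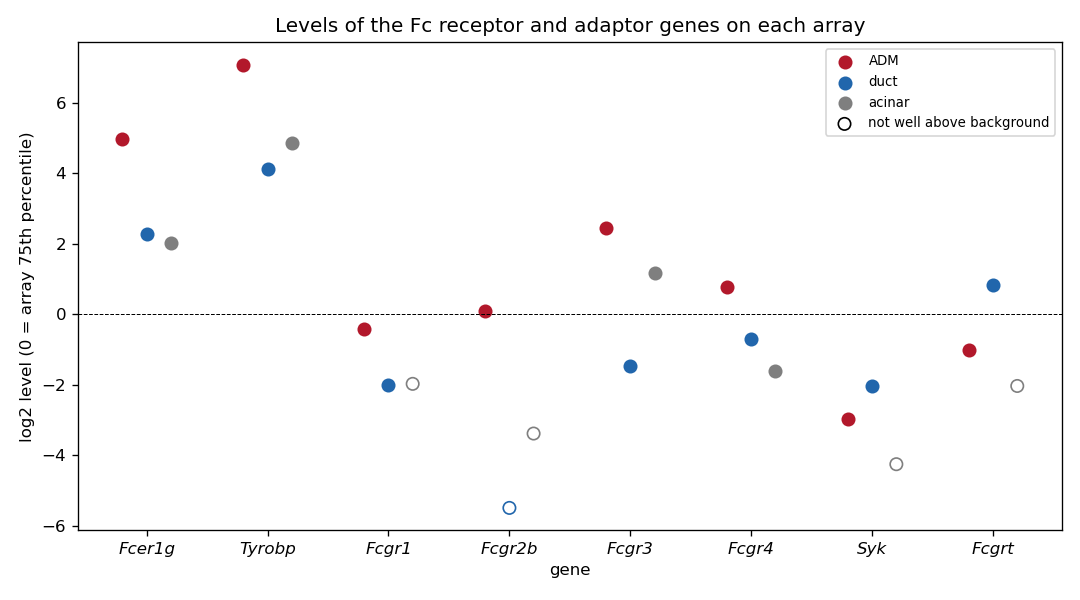
Level of each of the 8 genes (log2 processed signal, 0 = the array's 75th percentile) on the ADM, duct and acinar arrays, 1 probe a gene and 1 array a group, with open circles where the probe was not well above background. ADM is highest for Fcer1g, Tyrobp and the 4 Fcgr genes, and duct is highest for Fcgrt. The duct point of Syk is also the highest drawn, but it is within 2-fold of ADM and the acinar point was not detected.

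Among the activating IgG receptors, Fcgr3, a low-affinity receptor, had the widest range. Its signal was 389 ± 39.0 units on ADM, 34.5 ± 4.22 on duct and 79.1 ± 8.21 on acinar, which gave levels of 2.43, −1.47 and 1.17. Fcgr3 was 15.0-fold higher in ADM than in duct (3.90) and 2.40-fold higher than in acinar (1.26). It was the only one of the 7 genes compared that was at least 2-fold lower in duct than in acinar cells (−2.64, 6.23-fold).

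Fcgr4, an activating receptor of mouse monocytes, macrophages and neutrophils, had 123 ± 12.4 units on ADM, 58.6 ± 6.20 on duct and 11.5 ± 2.10 on acinar, with levels of 0.76, −0.71 and −1.61. It was 2.77-fold higher in ADM than in duct (1.47) and 5.19-fold higher than in acinar (2.38), and duct was 0.90 log2 units above acinar. That last difference is within 2-fold and was 0.06 under normexp, so the order of duct and acinar is not settled for Fcgr4. Fcgr1, the high-affinity IgG receptor, had 53.5 ± 5.69 units on ADM, 23.6 ± 3.21 on duct and 8.94 ± 2.17 on acinar, where it was not well above background. It was 3.00-fold higher in ADM than in duct (1.58) and 2.92-fold higher than the undetected acinar signal (1.54). A difference against an array without detection is given as a bound, "at least", with the undetected side raised, where it was lower, to the weakest signal that counted as detected on its array. On acinar that weakest signal was 8.54 units, and the undetected signals of Fcgr1, Fcgrt and Cd14 already stood above their array's limit. Nothing was raised for them, so their differences from acinar are given without "at least" and hold no margin for spot error. A bound that did not settle the direction was entered as 0 in counts and medians.

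Fcgr2b, the inhibitory receptor, was detected on the ADM array only, as were 4.53% of named genes. Its probe is spotted 10 times on each array, which shows the technical spread directly. The 9 ADM spots without an outlier flag ran from 69.5 to 80.6 units with a median of 76.7, and 9 of 9 were well above background. On duct, 8 spots ran from 1.95 to 2.29 units with a median of 2.10, and on acinar 10 spots ran from 1.79 to 6.86 with a median of 3.29, with 0 spots well above background on either. The spots of ADM and of the other arrays did not overlap. Their SD was 0.0589 log2 units on ADM, 0.0791 on duct and 0.721 on acinar, where the signal was at the noise. Fcgr2b was higher in ADM than in duct by at least 10.2-fold (at least 3.36) and than in acinar by at least 4.36-fold (at least 2.12), while duct and acinar could not be compared.

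**Figure D2:**
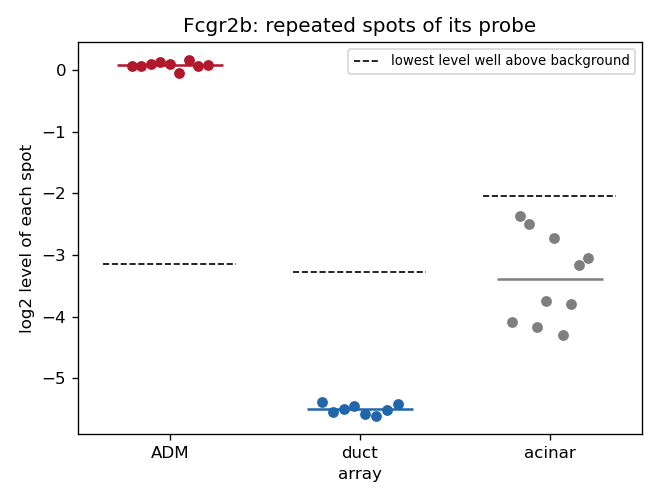
Level of each unflagged spot of the Fcgr2b probe on the ADM (9 spots), duct (8) and acinar (10) arrays, in log2 units, with a solid line at the mean and a dashed line at the lowest level called well above background on that array. All ADM spots lie above their dashed line and all duct and acinar spots below theirs.

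Fcgr2b, Fcgr4 and Fcgr3 are adjacent protein-coding genes on chromosome 1 and have related sequences. Whether a probe also binds a neighbour's transcript was not tested, since the probe sequences were not used here. Fcgr3 was detected on the duct and acinar arrays, where the Fcgr2b probe was not.

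Fcgrt had another order, and the order of Syk was not settled. Syk had 9.10 ± 2.02 units on ADM, 23.1 ± 3.17 on duct and 1.84 ± 1.85 on acinar, so the ADM spot was just above the lowest detected signal of 8.14 and the acinar spot was not detected. The levels were −2.99, −2.05 and −4.26. ADM was 0.94 log2 units below duct, within 2-fold, and repeated spots at these levels had a median SD of 0.463 on ADM and 0.250 on duct. Against acinar neither ADM nor duct gave a bound above 0. The level of Syk could thus not be ordered between ADM and acinar, nor between duct and acinar. Under normexp, ADM minus duct was 0.01, so that order is not settled either.

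Fcgrt was brightest in duct cells. It had 35.7 ± 4.03 units on ADM, 170 ± 17.2 on duct and 8.55 ± 2.07 on acinar, where it was not detected, with levels of −1.02, 0.83 and −2.04. Fcgrt was 3.60-fold lower in ADM than in duct (−1.85). Over the undetected acinar signal it was higher by 2.04-fold in ADM (1.03) and by 7.32-fold in duct (2.87). The ADM value lies close to the 2-fold line, and the acinar spot's error of 2.07 units is large beside its signal of 8.55. Its partner chain B2m had levels of 6.07, 5.40 and 4.88 on ADM, duct and acinar. B2m was higher in ADM than in acinar (1.19), but duct was within 2-fold of ADM (0.67) and of acinar (0.52). Whether the array order of the pair differed is thus not settled.

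As a group, 7 of the 8 genes lay 2-fold or more above acinar cells in ADM and 0 lay 2-fold below, beside 21.8% and 22.0% of 13632 compared genes. The median of the 8 was 1.83 log2 units, against 0.00 over all compared genes. Of the 7, Fcgr1, Fcgr2b and Fcgrt rest on an acinar side that was not detected, and the 4 measured on both arrays had a median of 2.30. With normexp background correction, which here adds an offset of 50 units to every spot, 3 of the 8 were past 2-fold (Fcer1g, Tyrobp and Fcgr3) and the median was 0.79.

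Against duct cells, 6 of the 8 were higher in ADM by 2-fold or more and 1 (Fcgrt) was lower, beside 21.6% and 24.8% of 14475 compared genes, with a median of 2.15 against −0.05. Only 1 of these values, that of Fcgr2b, is a bound. Normexp left 4 of the 6 past 2-fold, with Fcgr1 at 0.67 and Fcgr4 at 0.88.

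Between duct and acinar cells the group had no common direction. Of the 7 compared, 1 (Fcgrt) was higher in duct by 2-fold or more and 1 (Fcgr3) lower, beside 27.4% and 24.6% of 13826 genes, and the median was 0.00, as over all compared genes. Normexp left Fcgrt at 0.99, so 0 of the 7 compared were then higher in duct. Median scaling and quantile normalization each gave 2 of 7, and no filter gave 2 of 8. Duct held 52.7% of all 2-fold differences of this comparison and 64.7% with median scaling, which moved the median of all genes by 0.28. These 3 comparisons share arrays, so their values are not independent of each other.

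**Figure D3:**
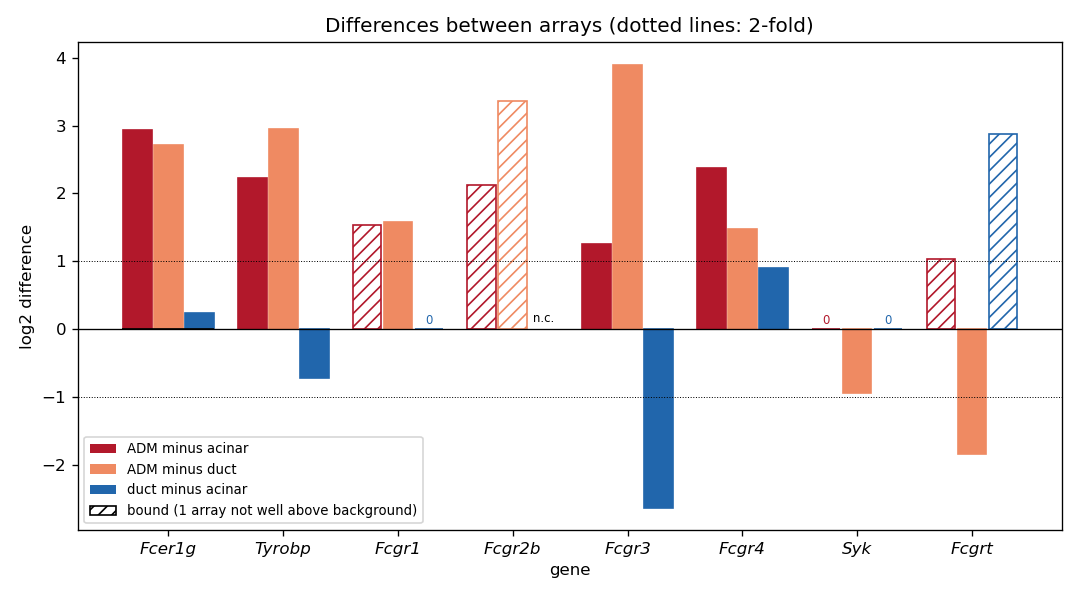
Log2 difference of each of the 8 genes for ADM minus acinar, ADM minus duct and duct minus acinar, 1 array a group. Hatched bars mark values with 1 array not well above background, dotted lines are at 2-fold, and n.c. stands where neither array was well above background. The ADM bars of Fcer1g, Tyrobp and the 4 Fcgr genes are all above the upper dotted line, and Fcgrt is at −1.85 against duct.

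**Figure D4:**
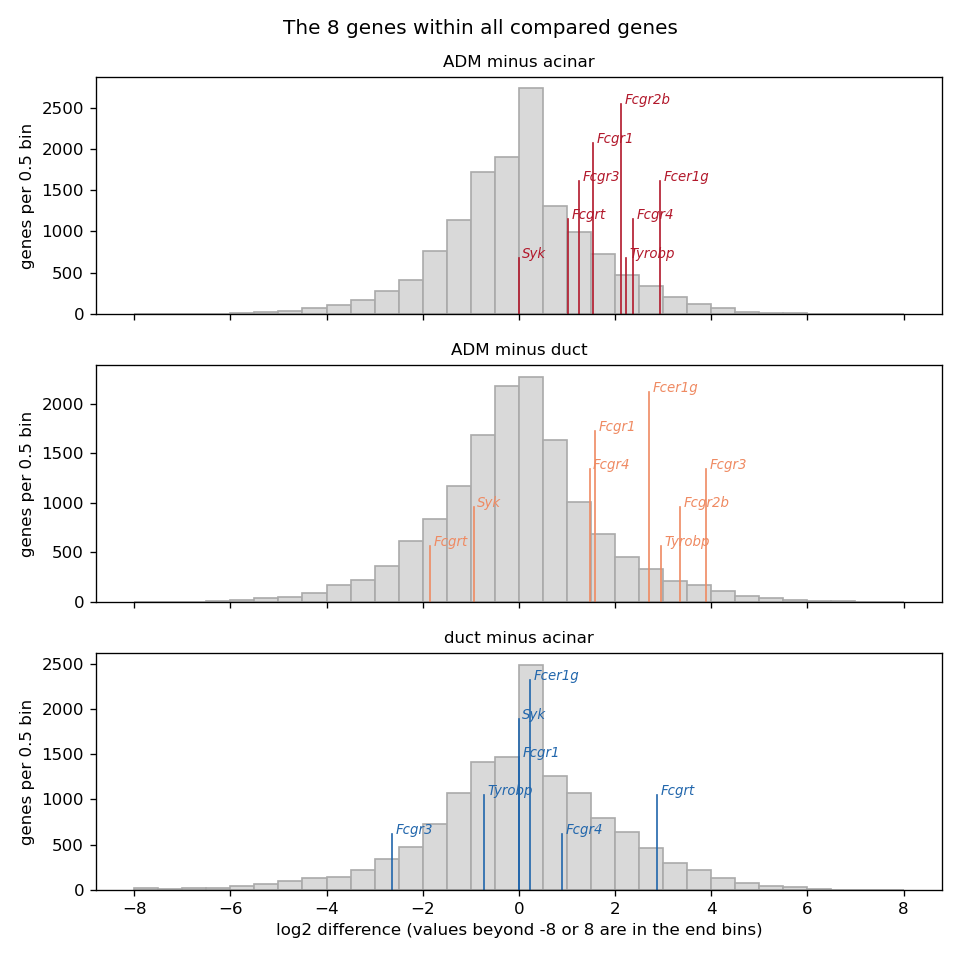
Number of genes in bins of the log2 difference for the 3 comparisons (grey), with a line at the value of each compared gene of the 8 (line heights only separate the names). Fcgr3 stands furthest out against duct, at 3.90, and Fcer1g against acinar, at 2.94.

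Within the spread of all compared genes, 3.39% lay as high as Fcer1g or higher for ADM against acinar, 7.45% as high as Tyrobp and 17.5% as high as Fcgr3. Against duct the shares were 1.98% for Fcgr3, 4.56% for Tyrobp and 5.58% for Fcer1g. Many other genes therefore differed as much between these arrays. The likeness of other genes was measured as the Euclidean distance between 3 levels, each gene centred on its own mean, over 9539 genes detected on all 3 arrays. Nearest to Tyrobp were Igsf6 (0.0421), an immunoglobulin superfamily gene, Stox2 (0.127) and Timp1 (0.172), an inhibitor of matrix metalloproteinases. Nearest to Fcer1g were Dlst (0.0463), a subunit of a mitochondrial dehydrogenase, Tbcd (0.0621), a tubulin-folding cofactor, and Riok2 (0.0883). With 3 points a gene such nearness is only a description.

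Receptors that pair with the adaptors, listed together with Itgb2, Itgam and Csf1r, which are linked to their signalling only, were partly higher in ADM. Of 23 on the array, 15 were compared between ADM and acinar, with 6 at least 2-fold higher, 1 lower and a median of 0.00. That median is the bound of Pilrb2, entered as 0. The 1 lower was Sirpb1a, whose probes opposed each other (−1.29 and 1.89). Itgam, Sirpb1b and Csf1r were within 2-fold by the brightest probe but had at least 1 other probe 2-fold higher. Trem2, a lipid-sensing receptor that signals through Tyrobp, had levels of 5.76 on ADM, 1.46 on duct and 2.91 on acinar, and was 4.30 log2 units higher in ADM than in duct and 2.84 higher than in acinar. Cd300c2 (at least 3.64) and Cd300ld (at least 2.87), of the CD300 family, and the beta-2 integrin chain Itgb2 (1.80) were also higher in ADM than in acinar. Against duct 8 of 15 were higher and 0 lower, led by Itgb2 (5.38). Between duct and acinar 0 of 13 were higher in duct and 7 lower, with Itgb2 at −3.57. For this list and those below, the shares of all compared genes stand beside the counts. They were 21.8% higher and 22.0% lower for ADM against acinar, and 21.6% and 24.8% for ADM against duct. For duct against acinar they were 27.4% and 24.6%.

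Of 7 other signalling adaptors, mostly chains of the lymphocyte antigen receptors, 6 were detected in ADM. Hcst, also called DAP10 and found in both lymphoid and myeloid cells, was at least 3.08 log2 units higher in ADM than in acinar and 3.55 higher than in duct. Of the T cell receptor chains, Cd3g (at least 2.44 against acinar, 3.21 against duct) and Cd3d (at least 1.70 and at least 2.93) were higher in ADM, and Cd247 was lower (−4.47 and −2.75). Cd3e was lower in ADM than in acinar (−1.04) and within 2-fold against duct (0.20). Of the B cell receptor chains, Cd79a was at least 1.59 higher than in acinar and at least 2.78 higher than in duct, and Cd79b was lower than in duct (a bound at −1.14). In all, 4 of 6 compared were higher in ADM than in acinar and 2 lower, and 4 of 7 were higher than in duct and 2 lower, the lower pair being Cd247 and Cd3e against acinar and Cd247 and Cd79b against duct.

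**Figure D5:**
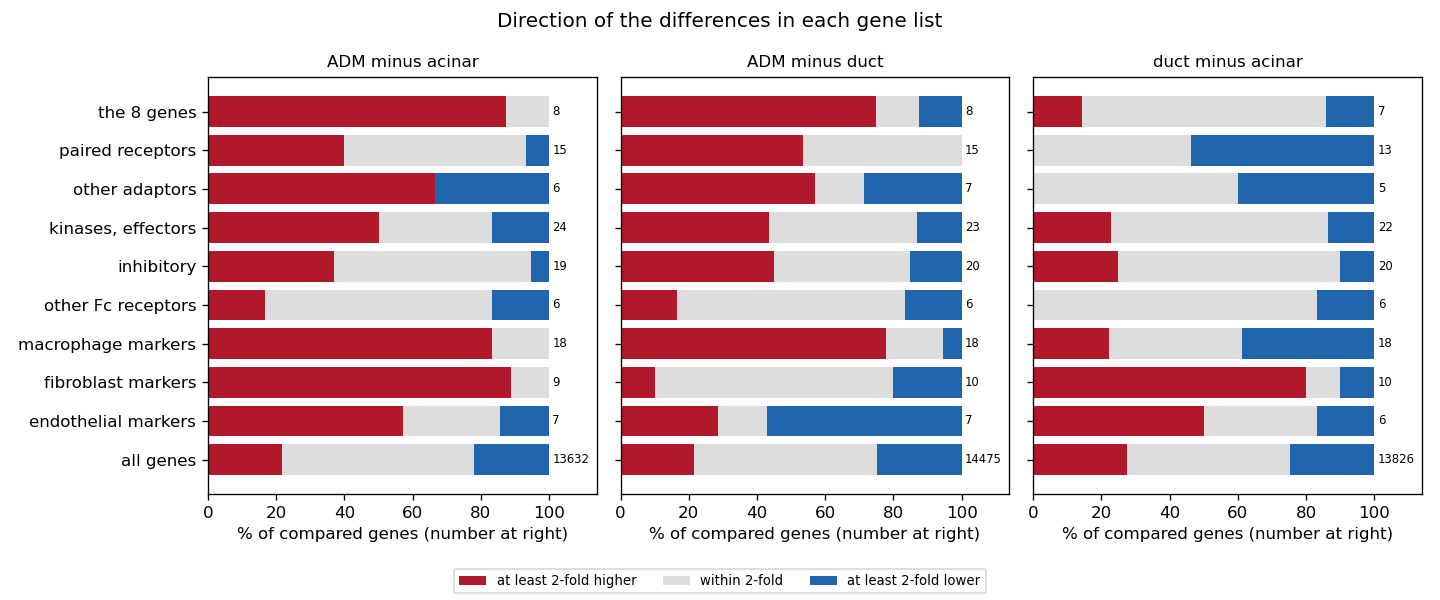
Share of compared genes that were at least 2-fold higher, within 2-fold or at least 2-fold lower, for the 8 genes, 5 lists of related genes, 3 lists of cell type markers and all genes, in each comparison (number compared at the right of each bar). Against acinar, 8 of 9 fibroblast markers, 7 of the 8 genes and 15 of 18 macrophage markers are higher in ADM, and against duct 1 of 10, 6 of 8 and 14 of 18.

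Of 24 kinases and effectors around Syk compared between ADM and acinar, 12 were higher in ADM and 4 lower, with a median of 0.81. Of 23 compared between ADM and duct, 10 were higher in ADM and 3 lower, with a median of 0.76. The docking protein Gab2 was 3.06 log2 units higher in ADM than in acinar and 3.98 higher than in duct. The phospholipase Plcg2 was at least 2.49 higher than in acinar, the adaptor Sh3bp2 at least 2.39 and at least 3.62, and Src at least 2.17 and 2.47 higher than in acinar and duct. Zap70, the T cell relative of Syk, was 2.79 and 2.34 higher. Grb2 had 2 probes that went opposite ways against acinar and were lower in ADM than in duct (−2.26 and −1.66). The 2 probes of Prkcd were lower in ADM than in acinar (−1.9 and −1.61). Lyn, Fgr, Fyn, Vav3 and Lcp2 were not well above background on any array. Between duct and acinar, 5 of 22 were higher in duct and 3 lower, led by the B cell linker Blnk (3.20). Neither count exceeded the share of all compared genes, 27.4% higher and 24.6% lower.

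Of 19 inhibitory receptors and phosphatases, 7 were higher in ADM than acinar and 1 lower (median 0.77). Against duct, ADM was higher for 9 of 20 and lower for 3 (median 0.56). Inpp5d, the SHIP1 lipid phosphatase that acts downstream of Fcgr2b, was at least 2.53 log2 units higher in ADM than in acinar and 2.34 higher than in duct, and the docking protein Dok2 at least 3.11 and 4.10. The 2 probes of Lilrb4a were 0.55 and 4.10 higher in ADM than in duct, only 1 of them past 2-fold, and opposed each other against acinar. Inppl1, encoding SHIP2, was lower in ADM (−1.13 against acinar, −2.00 against duct). Among 13 other Fc receptor genes, 6 were compared and 1, Fcrls, was higher in ADM by over 2-fold (1.54 against acinar, 3.67 against duct). Trim21, a cytosolic antibody receptor, was lower (−1.73 and −1.55), and Pigr, the epithelial receptor for polymeric antibodies, had levels of 4.80, 5.09 and 5.21 on ADM, duct and acinar. Fcer1a and Ms4a2, the other chains of the mast cell IgE receptor, were not detected on any array.

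Most macrophage markers, like most of the 8 genes, were higher in ADM than in acinar and in duct cells. In bulk RNA, fewer cells of a type and less RNA per cell cannot be told apart. Of 18 macrophage and monocyte markers compared, ADM exceeded acinar by 2-fold for 15 and fell below it for 0 (median 1.72), and exceeded duct for 14 and fell below it for 1 (median 2.14). Between duct and acinar they were higher in 4 and lower in 7 (median −0.52). Their summed linear level was 1140 on ADM, 631 on duct and 1470 on acinar, in multiples of the 75th percentile, most of it from Itgam (9.54, 9.07 and 10.41 by its brightest probe). The 3 Itgam probes differed, from −0.87 to 2.90 log2 units for ADM minus acinar and from 0.47 to 3.63 for ADM minus duct, and the brightest gave the lowest value in both. Without Itgam, left out after its values were seen, the sum was 398, 93.3 and 107. Of the markers, Adgre1, a macrophage surface receptor, was 3.10 log2 units higher in ADM than in acinar and 1.41 higher than in duct, Cd68 1.62 and 3.21, and Lyz2 2.21 and 4.87. Others did not go this way, or not by each probe. Csf1r was within 2-fold in both comparisons by its brightest probe (−0.07 and 0.97). Cd14 was 3.68 higher in ADM than in acinar, where it was not detected, and lower than in duct (−1.21). Cd163 was not detected on any array. The 3 Csf1r probes ran from −0.07 to 1.91 for ADM minus acinar, with 2 at least 2-fold higher. For ADM minus duct they ran from −0.19 to 1.71, with 1 at least 2-fold higher. Of 2 Adgre1 probes, the other gave −0.80 for ADM minus acinar and 2.06 for ADM minus duct. The 3 Cx3cr1 probes opposed each other for ADM minus duct, from −1.37 to 2.10, with 2 at least 2-fold higher and 1 lower. The part of macrophages in the levels of the 8 genes was not tested.

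Of 11 neutrophil markers, 5 were detected on ADM, 2 on duct and 2 on acinar. Of 6 compared between ADM and acinar, 2 were higher in ADM, 1 lower and 3 within 2-fold (median 0.00), and of 6 compared between ADM and duct, 3 were higher and 0 lower (median 0.85). Retnlg was at least 4.49 log2 units higher in ADM than in acinar and at least 5.72 higher than in duct, and S100a9 at least 3.44 and at least 4.67. Camp was lower in ADM than in acinar (a bound at −1.91), Csf3r lay at −0.42, and S100a8 and Elane gave no bound above 0 against acinar. Mpo, Cxcr2, Ngp, Ltf and Mmp8 were not well above background on any array. The summed level of the 11 was 172, 149 and 219 on ADM, duct and acinar, mostly from Csf3r, and 8.72, 0.362 and 1.07 without it, a gene left out after its values were seen. Of 9 mast cell and basophil markers, only Kit and Tpsb2 were detected, and the summed level was 4.16, 1.45 and 2.06. T and NK cell markers were detected in 9, 7 and 5 of 11 genes on ADM, duct and acinar, with summed levels of 14.3, 9.96 and 15.0. B and plasma cell markers were detected in 3, 4 and 2 of 8 (49.4, 41.8 and 66.1, mostly Xbp1), and dendritic cell markers in 6, 4 and 3 of 7 (24.1, 25.8 and 15.8, mostly Clec10a). Without Clec10a, left out after its values were seen, the dendritic cell sums were 1.72, 1.44 and 3.71, with acinar highest. For ADM against acinar, the T and NK cell list had 4 of 9 higher and 2 lower (median 0.24), the B and plasma cell list 1 of 3 and 0 (median −0.43), and the dendritic cell list 1 of 7 and 1 (median 0.27).

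Fibroblast and stellate cell markers were also higher in ADM than in acinar cells, in 8 of the 9 compared with 0 lower (median 2.54). Between ADM and duct, 1 of 10 was higher and 2 were lower (median −0.06). They were higher in duct than in acinar for 8 of 10 and lower for 1 (median 1.70), and their summed level was 316, 309 and 78.7 on ADM, duct and acinar. The platelet-derived growth factor receptor Pdgfrb, for example, had levels of 3.55, 3.47 and 0.50. Endothelial markers, given since Fcgrt is also an endothelial gene, were detected in 7, 6 and 3 of 8, with summed levels of 14.3, 20.4 and 14.9. Without Kdr, their brightest gene, left out after its values were seen, the sums were 5.53, 14.5 and 1.51 on ADM, duct and acinar. Against acinar, 4 of 7 were higher in ADM and 1 lower (median 1.40), and against duct 2 of 7 were higher in ADM and 4 lower (median −1.11). In duct over acinar, 3 of 6 were higher and 1 lower (median 1.69). The part of these cell types in the results was not tested.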

How the data were processed

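Per the labels' protocols, total RNA was amplified from 1.181 ng and 2.0 µg of cDNA was labelled with Cy3. The deposited spot intensity was written, per the file headers, by Agilent Feature Extraction 11.5.1.1, which took off background and the spatial trend of each array; the design is annotated on mm9. Slide and scan day were the same for the 3 arrays. The deposited table of log2 values by the authors differed from log2 of these intensities by 1 constant per array (−6.17, −6.58 and −5.13 for ADM, duct and acinar) to within 0.001 in 32905 of 32905 matched probes, so its genes are not centred and its signs not turned. Its medians were −0.56, −0.63 and −0.57, and the sources used here do not state its filter.

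Control spots and spots with an outlier flag were left out, log2 signals of a probe were averaged, and the 75th percentile over 55664 probes was subtracted, although detected probes made up less than 50% on ADM (49.7%) and acinar (40.7%). No spot was saturated. RefSeq names (GRCm38.p6, names and neighbours only) reached 28020 probes and 27644 stayed unnamed here. The probe with the highest mean stood for a gene. Differences used Python 3.11.15 and normexp limma 3.58.1, and the comparison was tested on simulated data. With 1 array per group there was no test, and precision is limited by that number. The 8 genes and the 17 lists (207 of 210 genes on the array) were chosen with earlier results of these data known. All 8 were named with each probe, and from each list some of the 6 largest differences a comparison. The search for protein motifs was not run here.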

Additional observations from a re-analysis of the deposited data

How the results depend on the processing

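Each gene of the 8 has 1 probe, so another choice of probe changed none of them. Where genes had a second probe, it gave the same direction in 62.0% of 1328 genes 2-fold apart for ADM against acinar, 66.1% of 1533 for ADM against duct and 62.1% of 1689 for duct against acinar. Normexp, whose offset of 50 units narrows differences between dim spots by construction, left 3 genes past 2-fold for ADM over acinar, with a median of 0.79, and put Fcgr1 at 0.22, Fcgr2b at 0.64, Fcgr4 at 0.93 and Fcgrt at 0. It gave 0 higher in duct than in acinar (Fcgrt 0.99), and turned Syk for ADM against duct to 0.01. Only 4 of the 8 could be compared with probes well above background on all 3 arrays, of which 4 were higher in ADM than in acinar and 0 higher in duct than in acinar. Median scaling, quantile normalization, no filter and a 1.5-fold threshold each gave 2 higher in duct than in acinar. Syk lay at −1.10 and −1.0 for ADM against duct under median scaling and quantile normalization, and at 1.27 against acinar without bounds. Median scaling moved the median of all genes by −0.16 for ADM against duct. Over the 10 alternatives, 202 of the single-gene differences kept their direction and side of the threshold, 7 fell below it, 9 rose past it and 1 reversed. Of the 202, 23 each came from the mean of a gene's probes, the second-brightest probe and the deposited table. With 1 probe a gene, and a table that differs by a constant, these settings could change little or nothing. The filter on all 3 arrays gave 12 more, with the values it kept unchanged. Normexp kept 15, while 7 fell below the threshold and 1 reversed.

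Counts over all genes moved by more than 1.5 times in these cases. Normexp gave 1707 genes higher in ADM than in acinar (2966 in the report's setting), 942 lower (2999), 1503 higher in ADM than in duct (3121), 2176 lower (3594) and 1501 lower in duct than in acinar (3398). Probes detected on all 3 arrays gave 1688 higher in ADM than in acinar, 1717 higher and 2055 lower in ADM than in duct, and 2298 higher in duct than in acinar (3791). No filter gave 7969 lower in ADM and 8829 lower in duct than in acinar. No paired analysis was possible because each group has 1 array, and for the same reason no replicate could be left out.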

Other observations

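The phagocyte NADPH oxidase, which Fc receptor signals can switch on in leukocytes, had 4 of 7 genes higher in ADM than in acinar cells and 0 lower (median 2.04 log2 units), and 4 of 7 higher than in duct and 0 lower (median 1.87). The cytosolic subunit Ncf4 had levels of 2.15, −3.42 and −3.39 on ADM, duct and acinar, and was at least 5.42 log2 units higher in ADM than in duct and at least 4.19 higher than in acinar. Ncf1, the p47 subunit, was 1.87 and 2.24 higher, and the small GTPase Rac2 1.94 and 2.04. The membrane subunit Cybb was 2.12 log2 units higher in ADM than in duct, and against acinar it differed by −0.26. Its partner Cyba was 2.77 higher than in acinar, and its probes opposed each other between duct and acinar.

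The endosomal traffic that carries the neonatal Fc receptor was measured through 8 compared genes. For ADM against duct 1 of 8 was at least 2-fold higher, the late endosomal GTPase Rab7 (1.39), and 2 were lower, Rab4a (−2.35) and Rab11a (−1.04), both of recycling endosomes, beside 21.6% and 24.8% of all compared genes. For duct against acinar 2 of 8 were higher and 1 lower, with a median of 0.46, beside 27.4% and 24.6% of all compared genes, so the counts lay near those shares.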
